A study of Mus musculus with 15 samples.

Results

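Serine synthesis, mitochondrial one-carbon metabolism and the ATF4 stress response were followed through mammary tumors and glands of mice as RNA levels of 10 genes. These are the transcription factors Atf4 and Ddit3, the ATF4-induced genes Asns, Chac1 and Trib3, the serine synthesis enzymes Phgdh, Psat1 and Psph, and the mitochondrial one-carbon enzymes Shmt2 and Mthfd2. They were taken by symbol from the 51826 genes of the expression tables, and all 10 were found and passed the filter on low values in every comparison. Total RNA was sequenced from 6 tumors labelled TRIM24 overexpression (COE), of which 3 are carcinosarcomas (64, 567, 897) and 3 carcinomas (89, 273_5, 3956), from 4 normal mammary glands labelled Cre control (mice 133, 392, 417_3 and 517_3), and from 3 carcinomas labelled as spontaneously arising tumors of unknown genotype (mice 219, FVB001 and FVB002, called non-TRIM24 tumors). In COE mice an MMTV-driven Cre removes a stop cassette ahead of a Flag-tagged Trim24 transgene, so the transgene is turned on mainly in mammary epithelium, and the glands come from mice labelled as Cre controls. All mice are labelled FVB, the submitters' design text calls the background FVB/129, and the labels give no ages. The study's pathology records list ages of the COE tumor mice, which differ between mice, and the paper describes the control animals as age-matched. The COE mice share 1 transgene integration. Tumor class was taken from the labels, and in the study's pathology records the readings of the pathologists differ for tumors 89, 567 and 3956. There 1 pathologist read tumors 89 and 3956, here carcinomas, as carcinosarcomas and tumor 567 as a spindle cell carcinoma. The other read them as labelled here. These records also hold a column of calls made from RNA-seq, so the classes may not be independent of expression. Batch 2 holds every non-TRIM24 tumor and a repeat library each of carcinoma 3956 and control gland 133, and all other libraries are in batch 1. The batches match the 2 expression tables that hold the libraries, and what else sets them apart is not known here.

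ATF4 is a transcription factor whose mRNA is translated more when the initiation factor eIF2 is phosphorylated, as in amino acid shortage or stress of the endoplasmic reticulum. Its protein level is therefore set largely by translation, and the level of its mRNA is not a measure of its activity. ATF4 and its partners induce enzymes that make serine from a glycolytic intermediate (PHGDH, then PSAT1, then PSPH), and the mitochondrial enzymes SHMT2 and MTHFD2, which move a carbon from serine onto folate for the synthesis of purines and thymidylate. MTHFD2 is known for its high level in embryonic and tumor tissue and its low level in most adult tissue.

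The promoters of the ATF4-induced genes and of the called enzymes are shown because ATF4 acts through a short element of the letters TGATGNAA, the C/EBP-ATF response element. RefSeq promoters (GRCm38.p6, 250 bases before to 50 bases after a start site) were matched for all 10 genes, with 11 promoters in all. The element was searched on both strands and was present in 3 of the 11 promoters, those of Asns, Chac1 and Trib3, against 3.97% of 32851 promoters in the table. The E-box CACGTG, a palindrome bound by MYC and related factors, was in 0 of the 11 promoters against 7.15% of all promoters. Capitals mark the element, which lies on the opposite strand in Chac1 and Trib3.
Asns, chr6:7693160-7693459, minus strand: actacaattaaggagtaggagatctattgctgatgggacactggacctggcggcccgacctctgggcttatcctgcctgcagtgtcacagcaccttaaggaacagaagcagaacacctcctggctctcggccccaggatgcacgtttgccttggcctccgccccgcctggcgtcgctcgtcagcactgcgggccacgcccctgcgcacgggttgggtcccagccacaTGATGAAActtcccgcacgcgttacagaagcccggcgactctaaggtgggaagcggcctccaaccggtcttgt
Chac1, chr2:119350992-119351291, plus strand: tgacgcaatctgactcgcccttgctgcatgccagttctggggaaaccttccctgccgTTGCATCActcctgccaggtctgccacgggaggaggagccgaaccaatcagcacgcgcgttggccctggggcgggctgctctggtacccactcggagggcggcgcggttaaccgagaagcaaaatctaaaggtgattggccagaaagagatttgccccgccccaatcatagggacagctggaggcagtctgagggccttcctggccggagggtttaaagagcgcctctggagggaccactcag
Trib3, chr2:152344011-152344310, minus strand: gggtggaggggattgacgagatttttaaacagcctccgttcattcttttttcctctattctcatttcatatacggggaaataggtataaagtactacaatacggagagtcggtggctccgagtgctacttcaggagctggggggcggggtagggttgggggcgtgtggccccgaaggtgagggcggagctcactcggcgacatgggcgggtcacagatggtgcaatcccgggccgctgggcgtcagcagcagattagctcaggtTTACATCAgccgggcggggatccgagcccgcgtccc
Phgdh, chr3:98339920-98340219, minus strand: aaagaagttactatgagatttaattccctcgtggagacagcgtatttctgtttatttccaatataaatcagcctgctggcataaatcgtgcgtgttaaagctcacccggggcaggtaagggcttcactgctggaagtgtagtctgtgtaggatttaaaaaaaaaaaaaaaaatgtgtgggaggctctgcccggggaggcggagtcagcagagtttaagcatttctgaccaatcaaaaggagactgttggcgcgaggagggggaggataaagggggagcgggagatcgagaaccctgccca
Mthfd2, chr6:83317555-83317854, minus strand: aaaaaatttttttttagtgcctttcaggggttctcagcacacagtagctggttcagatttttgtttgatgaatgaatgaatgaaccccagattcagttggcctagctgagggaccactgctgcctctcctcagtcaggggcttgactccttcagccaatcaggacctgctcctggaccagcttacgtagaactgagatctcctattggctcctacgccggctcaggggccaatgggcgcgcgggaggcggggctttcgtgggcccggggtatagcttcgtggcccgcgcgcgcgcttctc
A match is a run of letters, not a bound site, and no match in Phgdh and Mthfd2 says only that these letters are not in the window shown.

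Levels are given in TPM, an abundance corrected for gene length, with 1 common sum for all libraries. Thus levels of different genes can be set side by side but the depth behind them is unknown. RNA of Trim24, the targeted gene, ranged from 10.6 to 14.5 TPM among carcinosarcomas and from 13.9 to 24.1 TPM among COE carcinomas, while control glands spanned 14.5 to 22.4 TPM and non-TRIM24 tumors 5.34 to 10.04 TPM. Carcinoma 89 alone exceeded every control gland, the ranges of COE tumors and glands overlapped, and COE below names the label. These values are of total Trim24 RNA and do not bear on its protein. The 4 control glands fell into pairs. Glands 133 and 392 had 36287 and 46104 summed TPM of 12 adipocyte markers, and glands 417_3 and 517_3 had 1899 and 2090. Glands 417_3 and 517_3 had more luminal (5879 and 6225 against 1795 and 2162 summed TPM), basal (4228 and 4311 against 315 and 412) and proliferation marker RNA (436 and 402 against 120 and 97.7). They were also closer to each other, with 2.92% of 16775 genes more than 2-fold apart, than the repeat libraries of gland 133 (4.29%) or of tumor 3956 (3.48%) were to their first libraries. Results of the 10 genes against control glands are therefore given with each pair alone as well, a choice made after the data were seen. Those of the gene lists are given against all 4 glands only. The carcinosarcomas had 318 to 1431 summed TPM of 12 luminal markers against 5370 to 6839 in the COE carcinomas, and 2067 to 7980 against 297 to 2988 summed TPM of 8 fibroblast markers. The luminal marker Foxa1 was at 0 in tumor FVB001. That tumor and FVB002 had 66345 and 32939 summed adipocyte TPM against 252 in tumor 219. In bulk tissue fewer cells of a type and less RNA per cell cannot be told apart.

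In the carcinosarcomas 3 of the 10 genes rose against control glands: Mthfd2, Phgdh and Chac1 (limma adjusted p = 0.0115, 0.0217 and 0.0250). Across all 15287 genes tested in this comparison 23% were called, and 9.83% were called higher, so 3 of 10 stands beside about 1 in 10 for all genes. None of the 10 was called lower. Each of the 3 calls also held against either pair of control glands taken alone, but all 3 were lost without carcinosarcoma 64, and Mthfd2 alone was left without carcinosarcoma 567 or 897 or without gland 517_3. Glands 417_3 and 517_3 were closer than repeat libraries of 1 mouse, so their spread may be too small for 2 replicates. With these 2 averaged as 1 sample the limma adjusted p was 0.0152 for Mthfd2, 0.0487 for Phgdh and 0.0472 for Chac1. The median log2 fold change over the 10 genes was 0.91, against -0.12 over all genes tested. Fold changes throughout are of TPM + 1 on the log2 scale, which draws those of weakly expressed genes toward 0.

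The carcinosarcomas were the group in which most of these genes lay apart from the control glands. All 3 tumors exceeded all 4 control glands for 6 genes, namely Asns, Chac1, Phgdh, Psat1, Psph and Mthfd2, of which Asns, Psat1 and Psph did not pass the test. Of all 15287 genes tested, 15.4% lay above the control glands in this way. With the 3 COE carcinomas the same comparison called 0 of 10 genes by limma, against a background of 3.5% of genes called, and 0 of 10 had an unadjusted p under 0.05 against 21.5% of genes. For the 6 COE tumors together 0 of 10 were called by limma against a background of 17.1%, and 1 (Mthfd2) had an unadjusted p under 0.05 against 32.6% of genes. The plot of TPM by mouse shows the 10 genes side by side.

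**Figure D1:**
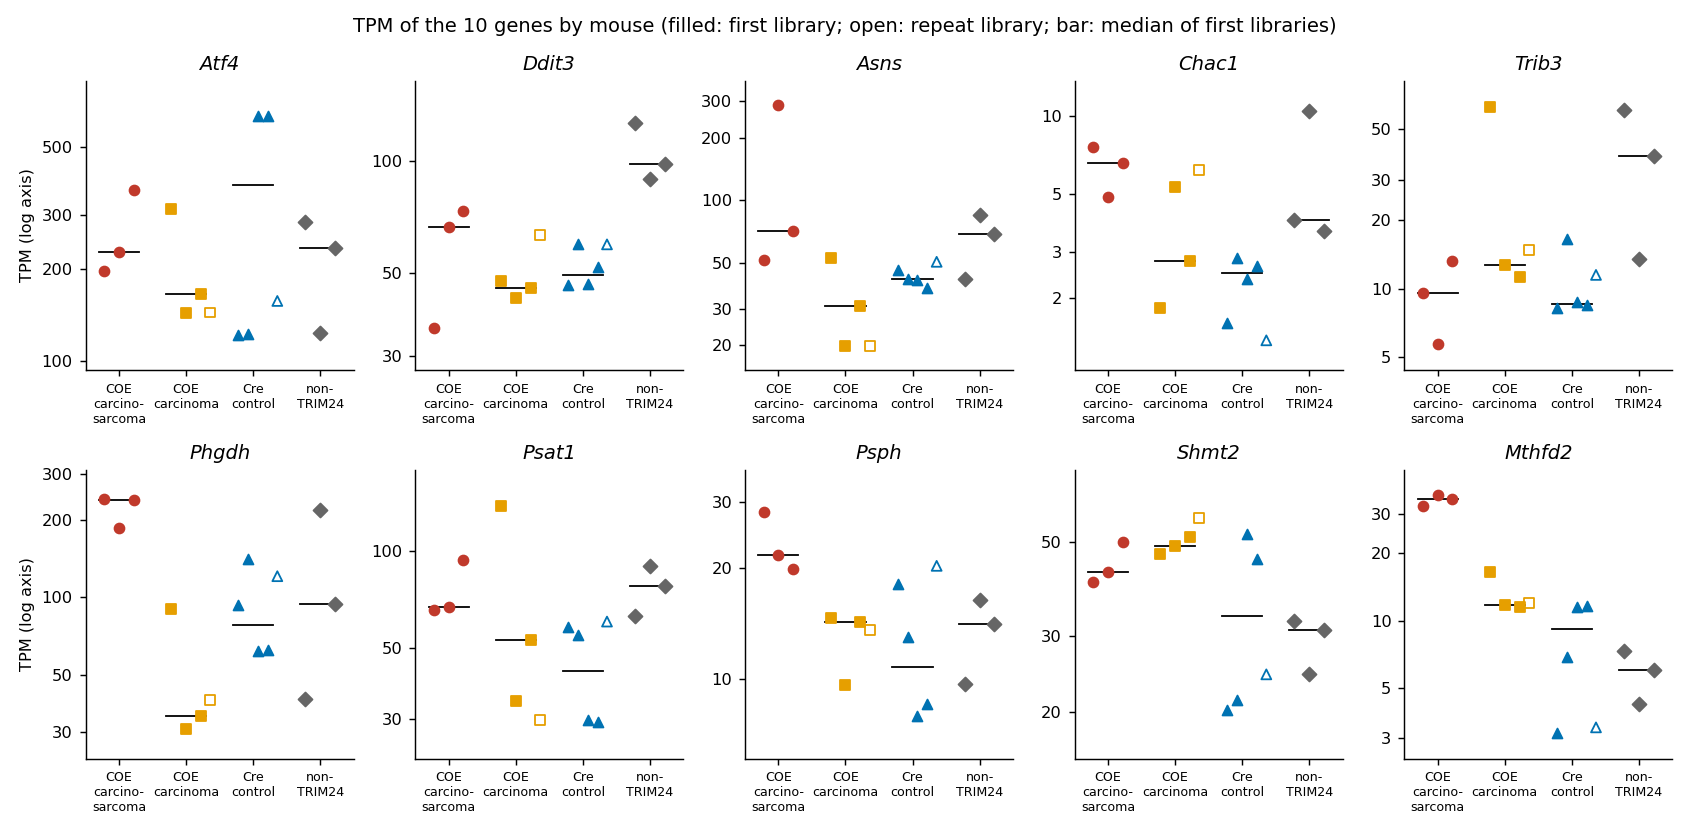
TPM on a log axis for each of the 10 genes, with 1 point per library for 3 COE carcinosarcomas, 3 COE carcinomas, 4 Cre control glands and 3 non-TRIM24 tumors. Filled points are first libraries, open points are the repeat libraries of tumor 3956 and gland 133, and bars are medians of first libraries. Mthfd2 and Phgdh are above every control gland in all 3 carcinosarcomas, whereas Atf4 is highest in 2 control glands.

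Mthfd2 encodes the mitochondrial dehydrogenase and cyclohydrolase that oxidizes the folate-bound carbon taken from serine (ENSMUSG00000005667.8, chromosome 6, 83305691 to 83325908, minus strand, GRCm38). It had 36.2, 32.5 and 35.0 TPM in carcinosarcomas 64, 567 and 897, and 11.5, 16.5 and 11.7 TPM in carcinomas 89, 273_5 and 3956. It had 3.16, 6.88, 11.5 and 11.7 TPM in control glands 133, 392, 417_3 and 517_3, and 7.30, 4.24 and 6.01 TPM in non-TRIM24 tumors 219, FVB001 and FVB002. Thus the 3 carcinosarcomas were the 3 highest of the 13 mice, close to one another, and did not overlap with any other group. Of all genes tested, 15.4% lay above the control glands in this way, 7.33% above the COE carcinomas and 29.5% above the non-TRIM24 tumors. Against the control glands the log2 fold change was 2.06 (SE 0.41, limma adjusted p = 0.0115). Without tumor 64 it was 2.03 (adjusted p = 0.0561). It was 2.63 (adjusted p = 0.00434) against glands 133 and 392 alone and 1.496 (adjusted p = 0.00361) against glands 417_3 and 517_3 alone.

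Mthfd2 was also the 1 gene of the 10 called between carcinosarcomas and non-TRIM24 tumors, with a log2 fold change of 2.42 (SE 0.40, limma adjusted p = 0.0108). In that comparison 4.76% of 16775 genes were called and 3.24% were called higher in the carcinosarcomas. All non-TRIM24 tumors are in batch 2, so this value rests on the batch term, which is estimated from the 2 mice with a library in both batches. The adjusted p was 0.0529 without carcinosarcoma 64 and 0.0559 without tumor FVB002. Between carcinosarcomas and COE carcinomas the log2 fold change of Mthfd2 was 1.34 (95% interval 0.75 to 1.92), but the limma adjusted p was 0.0829. In the COE carcinomas its log2 fold change against control glands was 0.73 (limma adjusted p = 0.400), and 2 of 3 carcinomas exceeded every gland.

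In first libraries the proliferation markers had higher summed TPM in every COE tumor than in any other mouse. Unlike Mthfd2 they overlapped between the COE classes. Between carcinosarcomas and COE carcinomas their median log2 fold change was 0.15, against 1.34 for Mthfd2. Their summed TPM over 12 genes was 659 to 781 in the carcinosarcomas, 444 to 771 in the COE carcinomas, 97.7 to 436 in the control glands and 98.6 to 390 in the non-TRIM24 tumors. The part of proliferating cells in the difference was not tested. With the mean of the adipocyte markers as a covariate, the log2 fold change of Mthfd2 in carcinosarcomas against control glands was 1.12 (limma adjusted p = 0.0587). The carcinosarcomas had 189 to 296 summed adipocyte TPM and the glands 1899 to 46104, without overlap. Fits of these groups with this covariate, here and below, therefore cannot separate tissue makeup from tumor.

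Shmt2, the enzyme that passes the carbon of serine to mitochondrial folate one step before MTHFD2, was not called in the carcinosarcomas (ENSMUSG00000025403.5, chromosome 10, 127517123 to 127522444, minus strand). It had 42.6, 40.3 and 49.97 TPM in the carcinosarcomas, 51.3, 46.9 and 49.0 TPM in the COE carcinomas, and 32.6, 24.5 and 31.1 TPM in the non-TRIM24 tumors. In control glands 133, 392, 417_3 and 517_3 it had 20.2, 21.3, 52.2 and 45.6 TPM, so the glands of the first pair lay under every tumor. In first libraries gland 417_3 lay above all COE tumors and gland 517_3 within their range, but the repeat library of tumor 3956 had 56.7 TPM. The log2 fold change of the carcinosarcomas against control glands was 0.46 (limma adjusted p = 0.423). It was 1.05 (adjusted p = 0.0167) against glands 133 and 392 alone and -0.14 (adjusted p = 0.631) against glands 417_3 and 517_3 alone, so the call depended on which glands were used. Each of the 6 COE tumors exceeded each of the 3 non-TRIM24 tumors, which are in the other batch. As many as 29.5% of genes lay this way for carcinosarcomas and 30.1% for carcinomas, and neither COE group passed the test against them (limma adjusted p = 0.176 for carcinosarcomas and 0.213 for carcinomas).

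**Figure D2:**
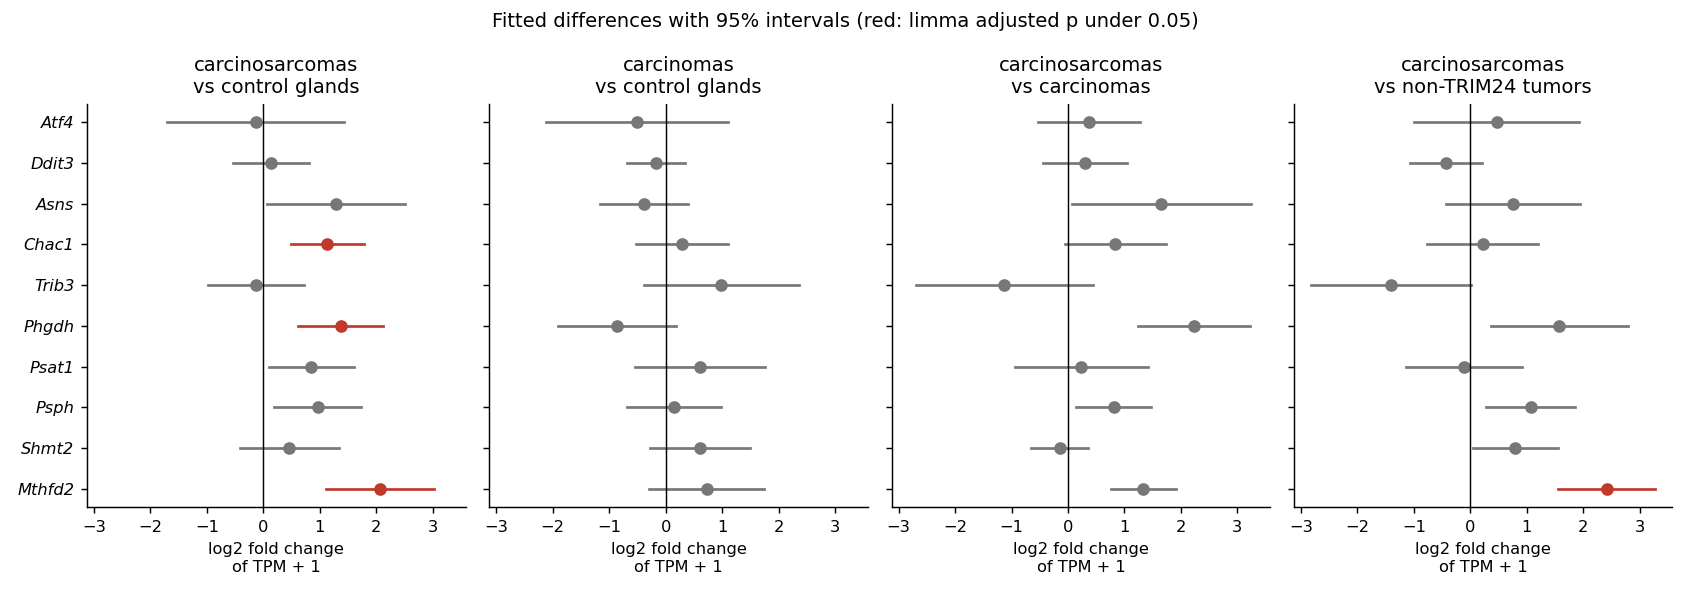
Log2 fold changes of TPM + 1 for the 10 genes in 4 comparisons, with points for the fitted values and lines for 95% intervals from limma. Red marks a limma adjusted p under 0.05, which Chac1, Phgdh and Mthfd2 reach against control glands and Mthfd2 reaches against non-TRIM24 tumors.

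Phgdh, the first and committed enzyme of serine synthesis (ENSMUSG00000053398.11, chromosome 3, 98313170 to 98339990, minus strand), was high in the carcinosarcomas and low in most COE carcinomas. It had 186, 240.4 and 238 TPM in carcinosarcomas 64, 567 and 897, and 34.8, 90.4 and 30.8 TPM in carcinomas 89, 273_5 and 3956. In the carcinosarcomas its median of 238 TPM was the highest of the 10 genes, ahead of Atf4 at 226 TPM, whereas in the COE carcinomas its median was 34.8 TPM against 165 TPM for Atf4. The control glands had 93.1, 140.3, 61.8 and 62.5 TPM, and the non-TRIM24 tumors 40.3, 219 and 93.8 TPM, the highest of these in tumor FVB001, which overlaps with the carcinosarcomas. Against control glands the carcinosarcomas rose by a log2 fold change of 1.37 (SE 0.33, limma adjusted p = 0.0217), and by 0.94 (adjusted p = 0.0460) and 1.81 (adjusted p = 0.00159) against glands 133 and 392 alone and glands 417_3 and 517_3 alone. The call was lost without any 1 of the 3 carcinosarcomas (adjusted p = 0.0652 to 0.0819) or without gland 517_3 (adjusted p = 0.0521), and also with quantile normalization (log2 fold change 1.14, adjusted p = 0.0732) or without the filter on low values (adjusted p = 0.0666).

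Between the COE tumor classes Phgdh had the widest difference of the 10 genes, a log2 fold change of 2.23 (95% interval 1.24 to 3.23). The limma adjusted p was 0.0923, and it was 0.0257 when carcinoma 273_5 was left out, with a log2 fold change of 2.71. By limma 0 of 10 genes were called between the classes against a background of 0.698% of genes, and 4 (Asns, Phgdh, Psph and Mthfd2) had an unadjusted p under 0.05 against 15% of genes. For Phgdh, Psph and Mthfd2 all carcinosarcomas exceeded all carcinomas, as for 7.33% of genes.

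Psat1, the transaminase of the second step (ENSMUSG00000024640.9, chromosome 19, 15904678 to 15947337, minus strand), was not set apart by tumor class. It had 66.9, 65.6 and 93.6 TPM in the carcinosarcomas and 52.9, 137.7 and 34.1 TPM in the COE carcinomas, the highest and lowest of the 6 COE tumors both being carcinomas. The control glands had 58.1, 54.7, 29.7 and 29.3 TPM and the non-TRIM24 tumors 62.7, 89.5 and 77.8 TPM, so all carcinosarcomas and all non-TRIM24 tumors were above all control glands. Of all genes tested, 15.4% lay this way for carcinosarcomas and 7.62% for non-TRIM24 tumors. The log2 fold change of the carcinosarcomas against control glands was 0.85 (limma adjusted p = 0.0973). It was 0.39 (adjusted p = 0.259) against glands 133 and 392 alone and 1.31 (adjusted p = 0.00808) against glands 417_3 and 517_3 alone, so the call depended on the glands. For the non-TRIM24 tumors it was 0.94 (limma adjusted p = 0.269).

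Psph, the phosphatase that ends the pathway (ENSMUSG00000029446.14, chromosome 5, 129765558 to 129787449, minus strand), was highest in the carcinosarcomas. It had 21.6, 28.2 and 19.8 TPM there, against 14.2, 14.6 and 9.64 TPM in the COE carcinomas, 18.1, 12.97, 7.95 and 8.57 TPM in the control glands and 9.73, 16.4 and 14.1 TPM in the non-TRIM24 tumors. No first library of another group reached the carcinosarcomas, but the repeat library of gland 133 had 20.2 TPM and so exceeded tumor 897. The shares of all genes that lay above each other group are those given for Mthfd2. The log2 fold change against control glands was 0.96 (95% interval 0.19 to 1.73, limma adjusted p = 0.0718). It was 0.55 (adjusted p = 0.171) against glands 133 and 392 alone and 1.37 (adjusted p = 0.0102) against glands 417_3 and 517_3 alone. All 3 serine synthesis genes were lower in glands 417_3 and 517_3 than in glands 133 and 392.

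Without the adipocyte covariate, Atf4 mRNA was not called in any comparison against all 4 control glands (ENSMUSG00000042406.7, chromosome 15, 80255184 to 80257541, plus strand). It had 226, 197 and 360.5 TPM in the carcinosarcomas, 165, 312 and 143 TPM in the COE carcinomas and 283, 123 and 234 TPM in the non-TRIM24 tumors. The control glands held both the lowest and the highest values, 121 and 122 TPM in glands 133 and 392 and 629 and 627 TPM in glands 417_3 and 517_3. The log2 fold change of the carcinosarcomas against all control glands was -0.13 (95% interval -1.70 to 1.43, limma adjusted p = 0.909). It turned from 1.05 (adjusted p = 0.0493) against glands 133 and 392 alone to -1.31 (adjusted p = 0.0168) against glands 417_3 and 517_3 alone, so the direction depended on the glands. Against all 4 glands with the adipocyte markers as a covariate it was -2.09 (limma adjusted p = 0.0041). That value lies outside those of both pairs, and the fit has the limit given for Mthfd2, as no carcinosarcoma overlapped with a gland in these markers. The Atf4 level was nearly the same in both libraries of tumor 3956 (143 and 144 TPM) and was 121 and 157 TPM in those of gland 133.

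Shmt2 and Mthfd2 shared the split of Atf4 among the control glands, being higher in glands 417_3 and 517_3, and Phgdh, Psat1 and Psph had the opposite split. Adipocyte marker RNA moved with it, as the plot against those markers shows. The part of adipocytes in these differences was not tested.

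**Figure D3:**
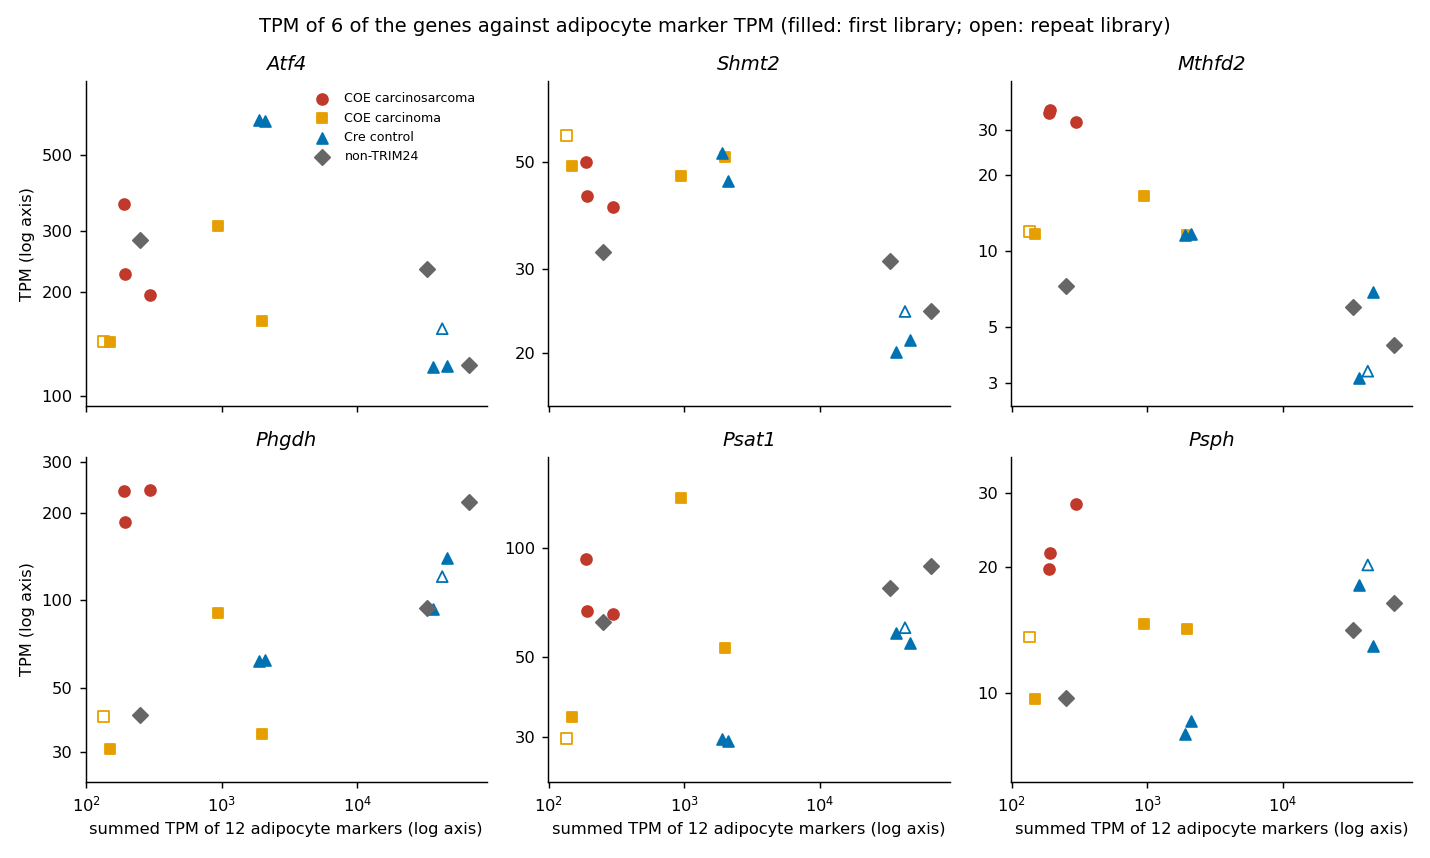
TPM of Atf4, Shmt2, Mthfd2, Phgdh, Psat1 and Psph against the summed TPM of 12 adipocyte markers, both on log axes, with 1 point per library and open points for repeat libraries. Control glands form 2 pairs, at 1899 and 2090 and at 36287 and 46104 summed TPM, and the carcinosarcomas lie at the left with Mthfd2 above all other libraries.

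Ddit3, the stress factor CHOP that acts downstream of ATF4 (ENSMUSG00000025408.15, chromosome 10, 127290774 to 127296288, plus strand), was highest in the non-TRIM24 tumors. These had 126, 89.7 and 98.1 TPM, above all 10 other mice, which ranged from 35.7 to 73.6 TPM. Of all genes tested, 7.62% separated the non-TRIM24 tumors from the control glands in this direction. The share was 13% against carcinosarcomas and 6.22% against COE carcinomas. The COE carcinomas were the most even group, at 43.0 to 47.5 TPM in their first libraries, although the repeat library of tumor 3956 had 63.2 TPM. Non-TRIM24 tumors are all in batch 2, and in that batch Ddit3 was also higher in both repeated mice, by 0.55 on the log2 scale in tumor 3956 and by 0.35 in gland 133 (46.6 and 59.8 TPM). The fitted values below include the batch term. None of these differences passed the test. The log2 fold change was 0.58 (limma adjusted p = 0.270) for non-TRIM24 tumors against control glands and -0.71 (95% interval -1.34 to -0.09, limma adjusted p = 0.242) for COE carcinomas against non-TRIM24 tumors.

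Among the ATF4-induced genes Chac1, which degrades glutathione, was the 1 called (ENSMUSG00000027313.3, chromosome 2, 119351229 to 119354381, plus strand). Its median was the lowest of the 10 genes in every group. It had 4.88, 7.61 and 6.62 TPM in the carcinosarcomas, 2.76, 1.82 and 5.32 TPM in the COE carcinomas, and 1.60, 2.84, 2.35 and 2.64 TPM in the control glands. The non-TRIM24 tumors had 3.98, 10.5 and 3.60 TPM, also above every gland, as for 7.62% of genes tested. Against control glands the carcinosarcomas rose by a log2 fold change of 1.13 (SE 0.28, limma adjusted p = 0.0250), with 1.20 (adjusted p = 0.0349) and 1.06 (adjusted p = 0.0344) against glands 133 and 392 alone and glands 417_3 and 517_3 alone. The call was lost without any 1 of the 3 carcinosarcomas (adjusted p = 0.0630 to 0.0975), or without gland 133 (adjusted p = 0.0506) or gland 517_3 (adjusted p = 0.0522). It was also lost without the filter on low values (adjusted p = 0.0789) and with the adipocyte markers as a covariate (adjusted p = 0.0708).

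Asns, which makes asparagine (ENSMUSG00000029752.12, chromosome 6, 7675169 to 7693254, minus strand), was highest by far in 1 tumor. Carcinosarcoma 64 had 288 TPM, tumors 567 and 897 had 51.7 and 71.3 TPM, and the control glands had 45.9, 41.9, 41.3 and 37.6 TPM. The COE carcinomas had 30.7, 52.5 and 19.8 TPM, below all glands in 2 of 3, and the non-TRIM24 tumors 41.8, 84.5 and 68.3 TPM. The log2 fold change of the carcinosarcomas against control glands was 1.28 (95% interval 0.06 to 2.50, limma adjusted p = 0.118), and 0.54 without tumor 64.

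Trib3, a pseudokinase that feeds back on ATF4 (ENSMUSG00000032715.9, chromosome 2, 152337422 to 152344032, minus strand), was high in single tumors outside the carcinosarcomas. Carcinoma 273_5 had 62.2 TPM and non-TRIM24 tumors 219 and FVB002 had 60.3 and 37.9 TPM. The other COE carcinomas had 11.2 and 12.6 TPM, the carcinosarcomas 5.73, 9.52 and 13.3 TPM and the control glands 8.21, 16.5, 8.72 and 8.48 TPM. All carcinosarcomas were below all non-TRIM24 tumors, as for 13% of genes tested, with a log2 fold change of -1.40 (limma adjusted p = 0.211). The nearest values were 13.3 TPM in tumor 897 and 13.5 TPM in tumor FVB001. The non-TRIM24 tumors are in batch 2, where Trib3 was also higher in both repeated mice. The rise was 0.21 on the log2 scale in tumor 3956 and 0.44 in gland 133. The genes with the ATF4 element in their promoters thus peaked in different mice, Asns in tumor 64, Chac1 in FVB001 and Trib3 in 273_5.

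**Figure D4:**
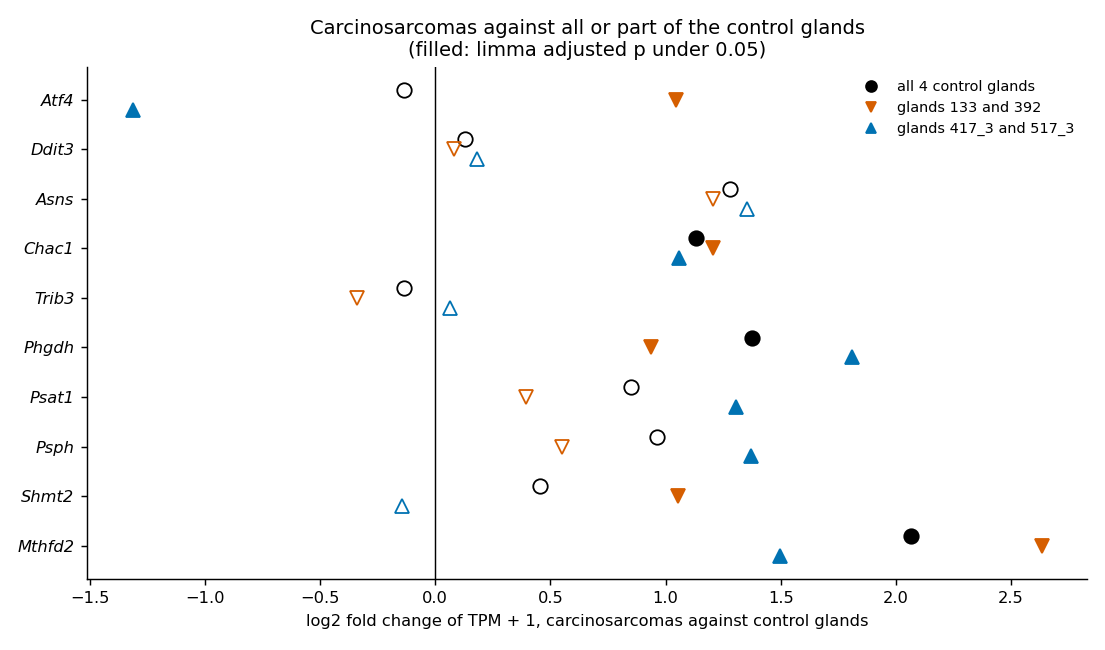
Log2 fold change of TPM + 1 of the 3 carcinosarcomas against all 4 control glands (circles), glands 133 and 392 (triangles down) or glands 417_3 and 517_3 (triangles up), filled where the limma adjusted p is under 0.05. Chac1, Phgdh and Mthfd2 are filled and positive in all 3 fits, whereas Atf4 runs from -1.31 to 1.05.

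For the non-TRIM24 tumors 0 of 10 genes were called against control glands by limma (background 0.709% of genes), with 1 gene, Chac1, at an unadjusted p under 0.05 against 19.3% of genes. Between COE carcinomas and non-TRIM24 tumors 0 of 10 were called by limma (background 0.0298%), with 3 genes, Ddit3, Shmt2 and Mthfd2, at an unadjusted p under 0.05 against 17.6% of genes. Against glands 417_3 and 517_3 alone, Atf4, Shmt2 and Mthfd2 were called lower in the non-TRIM24 tumors, with log2 fold changes of -1.62, -0.93 and -0.92 (limma adjusted p = 0.0351, 0.0184 and 0.0480). Against glands 133 and 392 alone these were 0.50, 0.23 and 0.21 (limma adjusted p = 0.728, 0.734 and 0.858), so their direction depended on the glands used.

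Other genes of these pathways were taken from lists. Among all genes 7.96% were called higher and 9.13% lower in COE tumors against control glands, which is the background of the counts that follow. Of 10 tested genes of mitochondrial folate and glycine metabolism other than Shmt2 and Mthfd2, 1 was called higher and 1 lower in COE tumors against control glands, with a median log2 fold change of 0.01 against -0.04 for all genes. The higher gene was Mthfd1l, which releases formate in the step after MTHFD2. It had 15.8 to 25.1 TPM among carcinosarcomas, 8.95 to 14.3 TPM among COE carcinomas, 0.95 to 4.46 TPM among control glands and 1.25 to 5.57 TPM among non-TRIM24 tumors, so all 6 COE tumors exceeded the other 7 mice. Of all genes tested, 7.39% lay above the control glands in this way. Above non-TRIM24 tumors lay 29.5% of genes for carcinosarcomas and 30.1% for carcinomas. The log2 fold change of Mthfd1l in COE tumors against control glands was 2.29 (SE 0.38, limma adjusted p = 0.00298), and in carcinosarcomas 2.15 against non-TRIM24 tumors (SE 0.49, limma adjusted p = 0.0290). The lower gene was Gldc, the glycine decarboxylase of the glycine cleavage system, at 0.09 to 0.52 TPM in COE tumors and 2.13 to 4.25 TPM in control glands (log2 fold change -1.72, limma adjusted p = 0.000715). Mthfd2l, the paralog of Mthfd2, had 23.6 to 50.7 TPM in COE tumors and 17.2 to 28.0 TPM in control glands and was not called (limma adjusted p = 0.142), nor was any of the 7 listed paralogs of the 10 genes, of which Mthfd2l and Cebpg had an unadjusted p under 0.05. In the carcinosarcomas against control glands 1 of the 7 paralogs was called lower and 0 higher by limma, where 23% of all genes were called in either direction.

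In the cytosolic folate and methionine cycles 1 of 15 tested genes was called higher and 3 lower in COE tumors, with a median log2 fold change of -0.38. Tyms, the thymidylate synthase, rose by 1.73 (limma adjusted p = 0.0125) from 9 to 32.9 TPM in the glands to 39.1 to 86.9 TPM in the tumors. This gene is also in the proliferation list. The methionine adenosyltransferase Mat2a, the folate transporter Slc46a1 and the folate receptor Folr1 fell, with log2 fold changes of -0.98, -1.25 and -3.004 (limma adjusted p = 0.00664, 0.0141 and 0.0317). Of 8 tested genes that use serine, 2 were called lower and 0 higher. These were Cbs, which condenses serine with homocysteine, at 0.09 to 0.49 TPM in COE tumors against 4.17 to 9.17 TPM in control glands (log2 fold change -2.47, limma adjusted p = 0.000279), and the serine racemase Srr (log2 fold change -0.79, limma adjusted p = 0.0410). In the carcinosarcomas Phgdh rose and Cbs fell by 2.51 on the log2 scale against the same glands (limma adjusted p = 0.00218).

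The other lists tied to ATF4 did not move as one. Of 18 cytosolic aminoacyl-tRNA synthetases 4 were called higher and 0 lower in COE tumors, with a median log2 fold change of 0.64. These were Cars, Rars, Gars and Hars, with log2 fold changes of 0.87, 1.13, 0.84 and 0.78 (limma adjusted p = 0.0157, 0.0220, 0.0230 and 0.0305). The summed TPM of the 18 genes was 644 and 756 in glands 133 and 392 but 1299 and 1176 in glands 417_3 and 517_3. It was 1343 to 1533 in carcinosarcomas and 1075 to 1284 in COE carcinomas, so COE carcinomas overlapped with the second pair. In the carcinosarcomas 7 of 18 were called higher against control glands, where 9.83% of all genes were. Against non-TRIM24 tumors, which are all in batch 2, 6 of 18 were called higher, where 3.24% of all genes were. Of 15 tested other ATF4-associated stress genes 0 were higher and 2 lower, Stc2 and Gpt2 (log2 fold changes -2.79 and -2.004, limma adjusted p = 0.00165 and 0.00703). Of 10 amino acid transporters 1 was lower, the glutamine transporter Slc1a5 (log2 fold change -3.04, limma adjusted p = 0.00544), at 14.1 to 54.9 TPM in COE tumors and 74.1 to 498 TPM in control glands. None of 6 eIF2 kinases and phosphatase subunits was called by limma in any of the 7 comparisons, with at most 2 of 6 at an unadjusted p under 0.05.

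Chaperones of the endoplasmic reticulum, known mainly as targets of XBP1 and ATF6, were called higher for 4 of 14 genes in COE tumors, with a median log2 fold change of 0.49. These were Hsp90b1, Creld2, Manf and Sdf2l1, with log2 fold changes between 1.02 and 1.33 (limma adjusted p = 0.0121 to 0.0233). The summed TPM of the 14 genes was 1136 and 1250 in glands 133 and 392 but 2467 and 2278 in glands 417_3 and 517_3. It was 2099 to 3992 in carcinosarcomas and 2669 to 3208 in COE carcinomas. Of 12 proliferation genes 8 were higher, led by Cdk1, Ccnb1, Bub1 and Ccna2 with log2 fold changes between 2.08 and 2.94 (limma adjusted p = 0.00174 to 0.00663). Markers of other cells also moved in these comparisons. Of 8 macrophage markers 7 were called higher in COE tumors, with summed TPM of 970 to 2762 against 206 to 682 in the glands, 4 of 12 adipocyte, 4 of 12 luminal, 3 of 8 basal, 4 of 8 endothelial and 4 of 8 lymphocyte markers were called lower, 2 of 8 fibroblast markers were called higher, and 0 of 6 skeletal muscle markers were called. Their part in the results above was not tested.

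Over the 10 mice of batch 1, the genes whose log2(TPM + 1) was most like that of Atf4 were Mt2 and Mt1, which encode metallothioneins (Pearson r = 0.97 each), then Prmt9, Acsl3 and Gnl3 (r = 0.95 to 0.96). For Psat1 they were Tyw5, Mrpl1, Fndc5, Mrpl22 and Mrps14 (r = 0.91 to 0.95), of which Mrpl1, Mrpl22 and Mrps14 encode proteins of the mitochondrial ribosome. Among the 10 genes themselves the correlations ran from -0.41 for Atf4 with Psph to 0.76 for Chac1 with Mthfd2, with 0.75 for Phgdh with Psph and 0.63 for Shmt2 with Mthfd2. These are descriptions over 10 mice that fall into groups and share tissue makeup, and the highest Atf4 values are those of glands 417_3 and 517_3.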

How the data were processed

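The deposited values are TPM, which the authors made by trimming reads, aligning them to GRCm38 with STAR against GENCODE M14 and estimating abundance with RSEM. Per the labels the libraries are stranded total RNA, and the submitters' processing notes also list TopHat, Cufflinks, DESeq and edgeR without a role. TPM carry no depth, so no counting error can be given, and RSEM divides reads between similar genes. Gene positions are from GENCODE M21 (GRCm38), in which the Atf4 record has another version number, and promoters from RefSeq.

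Differences in log2(TPM + 1) were tested by limma (3.58.1, under R 4.3.3) with lmFit and eBayes with trend, two-sided. A gene was tested if it reached 1 TPM in at least the number of libraries equal to the mice of the smaller group, with Benjamini-Hochberg adjustment over all genes tested and a threshold of 0.05. Within batch 1 only first libraries of the 2 groups at hand entered a fit. Any comparison that involved non-TRIM24 tumors was fitted over all 15 libraries with batch as a term, and duplicateCorrelation linked the libraries of 1 mouse (0.95). Where a mouse with a repeat library was left out, that correlation was reused and the batch term rested on the other repeated mouse. Replicates are separate mice. Simulated data with known changes were used to check the fits.

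The genes and lists were chosen with earlier results of these data known. Named genes are the 10 members, up to 4 genes per pathway list with the smallest p among those called in COE tumors against control glands, the 5 genes most correlated with Atf4 and with Psat1, and Trim24. Mthfd2l, Cebpg, Foxa1 and the named values of non-member genes in other comparisons are named beyond this rule, with their values already seen. Alternatives changed the pseudocount, filter, scaling, repeat libraries, samples in the fit, batch term, an adipocyte covariate and the mice used.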

Additional observations from a re-analysis of the deposited data

Results flagged for a closer look

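Trib3 was set apart by single mice. Carcinoma 273_5 had 62.2 TPM, far above the other 5 COE tumors (5.73 to 13.3 TPM), and gland 392 had 16.5 TPM, far above the other 3 control glands (8.21 to 8.72 TPM). By chance about 1 in 20 such groups would hold a mouse this far from the others, and 20 groups were examined, 10 genes in each of 2 groups. Trib3 was not called in any comparison, with or without these mice.

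The difference of Mthfd2 from control glands was larger in COE carcinosarcomas than in non-TRIM24 tumors by 2.42 on the log2 scale (limma adjusted p = 0.0108). All 3 carcinosarcomas were above all 3 non-TRIM24 tumors, as for 29.5% of genes tested, and the first libraries of these groups are in different batches.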

How the results depend on the processing

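Depth is unknown for TPM, tumor classes hold 3 mice each, and the control glands fall into pairs of unlike tissue makeup. No paired analysis was possible because replicate numbers follow the order of accessions and tie no mouse of one group to a mouse of another. Of 1300 refitted log2 fold changes 72 had another sign than the value reported, 71 of them with neither value past the threshold, and Atf4 in carcinosarcomas against control glands was the exception (-0.13, and 1.0463 with glands 133 and 392 only). Between scalings the median of all genes moved by over 0.1 on the log2 scale, for example from -0.27 to 0.00 for non-TRIM24 tumors against control glands. The number of genes called in COE tumors against control glands, 0 of 10, became 1 with quantile normalization, 1 with all batch 1 groups in one fit, 2 with glands 133 and 392 only (Shmt2 and Mthfd2), 1 with glands 417_3 and 517_3 only (Atf4, lower), and 0 to 1 when mice were left out in turn (1 without carcinoma 89 or 3956). In carcinosarcomas against control glands, 3 became 1 (Mthfd2) without the filter, 2 with quantile normalization (not Phgdh), 5 with glands 133 and 392 only, 6 with glands 417_3 and 517_3 only, and 0 to 3 when mice were left out (0 without tumor 64, and 1 without tumor 567, tumor 897 or gland 517_3). With the adipocyte covariate the genes called there were Atf4 (lower, -2.09), Phgdh, Psat1 and Psph, and not Chac1 or Mthfd2. Carcinosarcomas and glands did not overlap in adipocyte marker RNA, so that fit cannot separate tissue makeup from tumor. In COE carcinomas against control glands, 0 became 1 with glands 133 and 392 only (Shmt2). Between carcinosarcomas and COE carcinomas, 0 to 1 were called when mice were left out (1, Phgdh, without carcinoma 273_5). In non-TRIM24 tumors against control glands, 0 became 3 with glands 417_3 and 517_3 only, where the batch term rests on tumor 3956 alone. Between carcinosarcomas and non-TRIM24 tumors, 1 became 3 with the adipocyte covariate, 0 with the libraries of a mouse treated as separate (Mthfd2, adjusted p = 0.142), and 0 to 2 when mice were left out (0 without tumor 64 or FVB002, and 2 without FVB001). The cause of these changes was not tested, though leaving out mice also leaves fewer samples. Shares of all genes called in these refits are not given, so the counts have no background beside them. A higher count is therefore not a result about these genes. Over its alternatives the adjusted p of Mthfd2 ranged from 0.00361 to 0.0587 against control glands and from 0.00398 to 0.142 against non-TRIM24 tumors, that of Phgdh from 0.00159 to 0.0819 and that of Chac1 from 0.00632 to 0.0975.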
